A study of Mus musculus with 31 samples.

Results

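Radial glia-like stem cells of the dentate gyrus are described here through 10 marker genes, Hopx, Fabp7, Fgfr3, Nes, Gfap, Vim, Sox2, Sox9, Nr2e1 and Lpar1. The genes were taken by name from every RNA sequencing file, and all 10 were present among the 24062 gene names of the sorted-cell files and the 24322 of the culture files. Expression was measured in 21 libraries, 3 per group, and groups were compared only within postnatal day 10 (P10), within 8 weeks and within culture. The 10 chromatin samples of the 31 listed were not analysed here.

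Sorted cells came from the dentate gyrus of C57BL/6 mice carrying the Nestin-EGFP transgene, in which regulatory sequence of the nestin gene drives a green fluorescent protein. MDZ P10 mice received midazolam, a benzodiazepine sedative, intraperitoneally at 10 mg/kg on postnatal days 7, 8 and 9, and Control P10 mice received water (dH2O) on the same days. RUN MDZ 8w, MDZ 8w and Control 8w came from mice of 8 weeks that had the same injections as pups. RUN MDZ 8w mice were midazolam-exposed and housed with a running wheel, MDZ 8w mice were exposed without one, and Control 8w mice had water. No unexposed running group was among the samples, so an effect of running alone cannot be told apart from its effect in exposed mice. Each P10 library was built from 50000 EGFP-positive cells of 1 mouse and each 8-week library from about 30000 such cells pooled from 3 to 5 mice. The culture groups were wild-type ICR neural stem cells from embryonic day 11 cortex, passaged more than 20 times and grown with EGF and bFGF at 20 ng/ml each. Both carried a lentivirus for the M2rtTA transactivator. Egr1 culture also received a lentivirus for Flag-tagged Egr1, a zinc finger transcription factor, and Control culture did not. Whether the culture libraries came from separate cultures is not stated, so p-values in culture measure the spread of these 6 libraries alone, and that spread may be technical.

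In the adult dentate gyrus, new granule neurons descend from radial glia-like cells that sit in the subgranular zone, send a radial process through the granule layer and are mostly quiescent. When they are activated they give rise to proliferating progenitors and neuroblasts, and with time many of them take on features of astrocytes. The markers therefore overlap with those of astrocytes: Gfap, Fgfr3, Sox9, Sox2 and Vim are also transcribed in astrocytes, and none of the 10 defines the stem cell alone. Nes is the gene whose regulatory sequence drives the reporter used for sorting, so its level is tied to the sort.

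Levels are given in FPKM at P10 and in TPM at 8 weeks and in culture. Both are corrected for gene length, so genes can be ranked within a library, but values were not compared between the separately normalized sets. Read depth was not in the files. Relative depth could be recovered for the P10 libraries (0.571 to 1 of the deepest) and for the culture libraries (0.899 to 1), and that of the 8-week libraries is unknown. A P10 library had 17623 to 18470 genes above 0, a RUN MDZ 8w library 15568 to 15906, an MDZ 8w library 15382 to 16709, and a Control 8w library 11163 to 11397. Of the genes detected in Control 8w replicates 2 and 3, 97.4% were common to both, whereas other pairs within an 8-week group had 77.8% to 90.0% in common. Their mean was used as 1 sample, which leaves n = 2 for Control 8w, and replicate 1 stood apart from both. Changes are log2 fold changes of value + 1 with their standard errors from limma-trend, a scale that understates changes of low genes, and a gene was called at a Benjamini-Hochberg adjusted p under 0.05 over all genes tested.

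The P10 comparison asked what midazolam exposure did to the sorted cells 1 day after the last injection. None of the 10 markers was called in MDZ P10 against Control P10 by limma, while 0.00774% of the 12914 genes tested were called in either direction. At an unadjusted p under 0.05 there were 2 of 10 markers, against 12.2% of all genes. The median change of the markers was 0.04 and that of all genes 0.01. Groups did not overlap for Fabp7 and Sox9, 2 of 10 markers against 18.8% of all genes.

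Hopx (mm10 chr5:77086986-77115123), a homeodomain protein that does not bind DNA by itself and marks quiescent stem cells, measured 103, 95.9 and 86.2 FPKM in the MDZ P10 libraries and 89.2, 72.6 and 101 FPKM in the Control P10 libraries. The ranges overlapped, with the lowest value in Control P10 replicate 2, and the change was 0.13 ± 0.12 (adjusted p = 0.7). Fabp7 (chr10:57784923-57788450), the brain fatty acid binding protein of radial glia, measured 836, 777 and 749.6 FPKM in the MDZ P10 libraries and 1037, 904 and 1203 FPKM in the Control P10 libraries. Every MDZ P10 library lay below every Control P10 library. The mean was 787 ± 44.2 FPKM in MDZ P10, against 1048 ± 149.7 FPKM in Control P10 (SD, n = 3 each), a log2 change of -0.40 ± 0.12 with a 95% interval of -0.69 to -0.12 (adjusted p = 0.293). Without single libraries its change ran from -0.51 to -0.30 (adjusted p 0.0641 to 0.638), and after quantile normalization it was -0.20 (adjusted p = 0.537). Fabp7 was the most abundant of the 10 at this age and took 53.5% to 56.3% of their summed FPKM in MDZ P10 libraries, against 61.8% to 64.3% in Control P10 libraries.

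The 2 receptors sat at opposite ends of the level range. Fgfr3 (chr5:33721724-33737068), a receptor tyrosine kinase for fibroblast growth factors, measured 140.5, 145 and 145 FPKM in the MDZ P10 libraries and 159, 137 and 129 FPKM in the Control P10 libraries. The MDZ P10 values fell inside the Control P10 range and the change was 0.02 ± 0.08, with an interval of -0.16 to 0.21 (adjusted p = 0.935). Lpar1 (chr4:58435252-58554027), a G protein-coupled receptor for lysophosphatidic acid used to label hippocampal progenitors, measured 6.99, 8.21 and 6.77 FPKM in the MDZ P10 libraries and 7.26, 10.8 and 7.54 FPKM in the Control P10 libraries. Here Control P10 replicate 2 was the highest library and the ranges overlapped (change -0.18 ± 0.14, adjusted p = 0.616).

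The 3 intermediate filament genes had overlapping groups at this age. Nes (chr3:87971093-87980451), which encodes the filament protein nestin of neural progenitors, measured 9.19, 10.1 and 9.61 FPKM in the MDZ P10 libraries and 10.7, 8.71 and 11.1 FPKM in the Control P10 libraries. These overlapping values gave a change of -0.07 ± 0.09 with an interval of -0.27 to 0.14 (adjusted p = 0.797). Gfap (chr11:102887336-102897200), the filament protein of astrocytes and adult stem cells, measured 123, 139 and 92.6 FPKM in the MDZ P10 libraries and 113, 90.3 and 136 FPKM in the Control P10 libraries. Vim (chr2:13574311-13582826), the vimentin filament of radial glia and many other cells, measured 93.8, 101 and 91.9 FPKM in the MDZ P10 libraries and 92.2, 74.6 and 114 FPKM in the Control P10 libraries. In both genes the groups overlapped, with changes of 0.06 ± 0.18 for Gfap and 0.05 ± 0.14 for Vim (adjusted p = 0.916 for each).

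Of the 3 transcription factors, Sox9 had the largest change at P10. Sox9 (chr11:112782210-112787757), an HMG box factor of glial and stem cells, measured 46.8, 47.2 and 43.6 FPKM in the MDZ P10 libraries and 40.5, 30.1 and 40.9 FPKM in the Control P10 libraries. All MDZ P10 libraries were above all Control P10 libraries, with a change of 0.31 ± 0.11 and an interval of 0.05 to 0.57 (adjusted p = 0.353). Without Control P10 replicate 2, its lowest library, the change was 0.17 (adjusted p = 0.207). Sox2 (chr3:34649995-34652461), an HMG box factor that maintains progenitors, measured 104, 106 and 98.8 FPKM in the MDZ P10 libraries and 106, 87.4 and 105 FPKM in the Control P10 libraries. Nr2e1 (chr10:42561963-42583590), the orphan nuclear receptor Tlx that represses transcription in neural stem cells, measured 21.4, 20.5 and 22.5 FPKM in the MDZ P10 libraries and 23.1, 18.3 and 21.7 FPKM in the Control P10 libraries. Neither separated the groups (changes 0.05 ± 0.08 and 0.03 ± 0.09, adjusted p = 0.834 and 0.908).

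Control P10 replicate 2 was the lowest of the 6 P10 libraries for 7 of the 10 markers (Hopx, Nes, Gfap, Vim, Sox2, Sox9 and Nr2e1). It was also the shallowest of them, and its summed level of 10 mature oligodendrocyte markers was 2895 FPKM, against 1291 to 1694 FPKM in MDZ P10 and 1297 and 1417 FPKM in the other Control P10 libraries. The part of these in the marker levels was not tested. The 15 mature astrocyte markers summed to 2950 to 3074 FPKM in MDZ P10 and 2845 to 3363 FPKM in Control P10, with 0 of 15 called. The 15 pericyte, smooth muscle and fibroblast markers summed to 223 to 248 FPKM in MDZ P10 and 265 to 309 FPKM in Control P10, without overlap, with 0 of 14 tested called, 1 change positive and a median of -0.33. The part of these in the lower Fabp7 values of MDZ P10 was not tested.

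**Figure D1:**
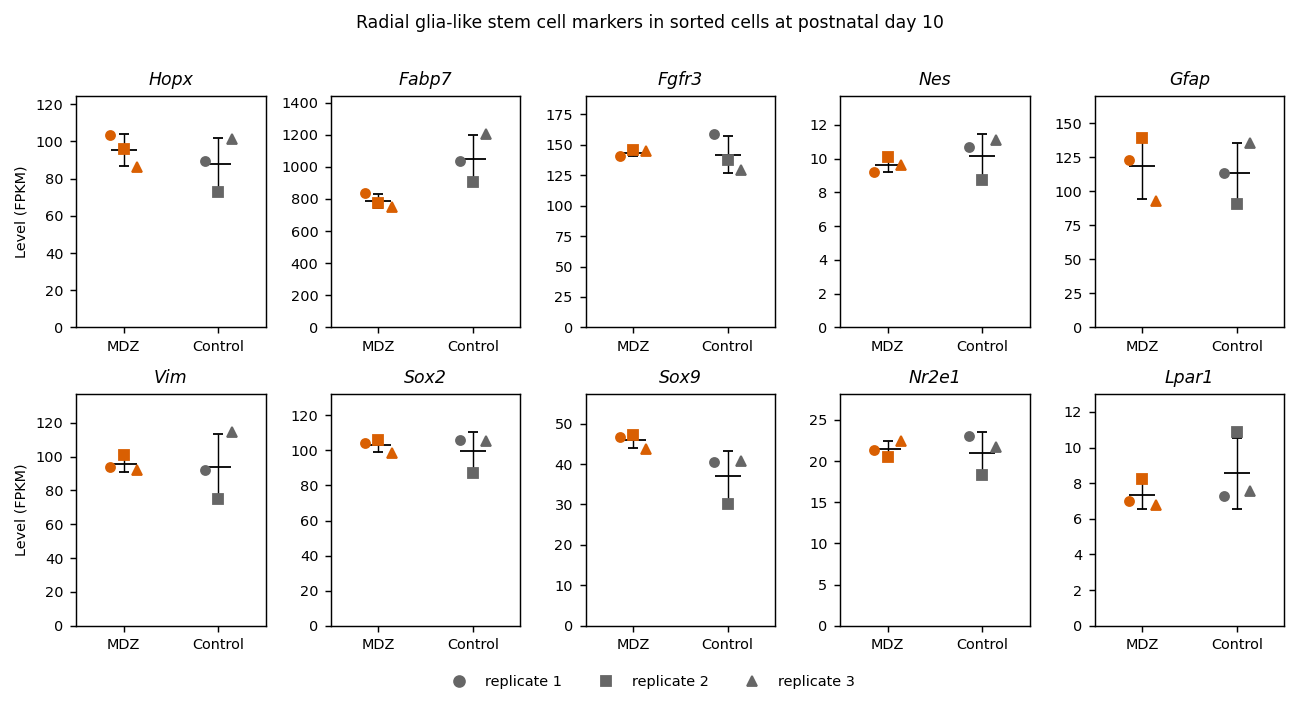
Level of each of the 10 markers in FPKM (y axes, from 0) in the 3 MDZ P10 and 3 Control P10 libraries; symbols are libraries, the horizontal line is the mean and the bar the SD. The groups separate for Fabp7, where MDZ P10 is lower, and for Sox9, where MDZ P10 is higher, and overlap for the other 8 markers.

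At 8 weeks the comparison asked whether exposure in early life left a difference in the sorted cells of young adults. Hopx, Fabp7 and Fgfr3 were called higher in MDZ 8w than in Control 8w, 3 of 10 markers, while 4.68% of the 15264 genes tested were called higher and 0.452% lower (5.13% in either direction). All 10 changes were positive. Their median was 1.12, but the median over all genes was also raised, at 0.36, and fell to -0.06 after quantile normalization, where the median of the markers was 0.55. Without Control 8w replicate 1 the medians were 0.60 for the markers and 0.24 for all genes. Relative to the all-gene median, the changes were 1.31 for Hopx, 1.06 for Fabp7 and 1.51 for Fgfr3, and the same 3 markers were called under quantile and median-of-ratios scaling. In sorted bulk samples, fewer cells of a type and less RNA per cell cannot be told apart.

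Hopx measured 150.5, 294 and 181 TPM in RUN MDZ 8w, 342, 393 and 322 TPM in MDZ 8w, and 128, 90.6 and 97.1 TPM in Control 8w. The 3 groups did not overlap: MDZ 8w was highest, Control 8w lowest and RUN MDZ 8w between them. The mean was 352 ± 36.6 TPM in MDZ 8w (n = 3), against 111 ± 24.1 TPM in Control 8w (n = 2), a log2 change of 1.67 ± 0.29 with an interval of 0.99 to 2.35 (adjusted p = 0.0188). In RUN MDZ 8w the mean was 209 ± 75.6 TPM, a change of -0.81 ± 0.26 against MDZ 8w with an interval of -1.42 to -0.20 (adjusted p = 0.341) and of 0.86 ± 0.29 against Control 8w (adjusted p = 0.104).

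Fabp7 measured 1089, 775 and 768 TPM in RUN MDZ 8w, 1452, 1388 and 960.2 TPM in MDZ 8w, and 458, 522 and 415 TPM in Control 8w. Both exposed groups lay wholly above Control 8w, and they overlapped each other through MDZ 8w replicate 3. The mean was 1267 ± 268 TPM in MDZ 8w, against 463 ± 7.07 TPM in Control 8w, a change of 1.43 ± 0.23 with an interval of 0.88 to 1.97 (adjusted p = 0.0143). RUN MDZ 8w, at 877 ± 184 TPM, differed from MDZ 8w by -0.53 ± 0.21 (interval -1.01 to -0.04, adjusted p = 0.458) and from Control 8w by 0.90 ± 0.23 (adjusted p = 0.0476).

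Fgfr3 measured 109, 95.5 and 123 TPM in RUN MDZ 8w, 89.0, 72.6 and 93.8 TPM in MDZ 8w, and 15.7, 27.5 and 35.4 TPM in Control 8w. The order differed from that of Hopx, since RUN MDZ 8w was highest, with each of its libraries above each MDZ 8w library. The mean was 85.1 ± 11.1 TPM in MDZ 8w, against 23.6 ± 11.1 TPM in Control 8w, a change of 1.88 ± 0.32 with an interval of 1.14 to 2.61 (adjusted p = 0.0159). RUN MDZ 8w, at 109 ± 13.7 TPM, was 0.36 ± 0.28 from MDZ 8w (adjusted p = 0.791) and 2.24 ± 0.32 from Control 8w (adjusted p = 0.00594).

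The calls against Control 8w rested on few libraries. Leaving out MDZ 8w replicate 1, 2 or 3 gave Hopx an adjusted p of 0.0847, 0.0824 or 0.0677 and Fgfr3 0.0865, 0.0559 or 0.0773, and Fabp7 reached 0.0705 and 0.0674 without replicates 1 and 2. With library quality weights none of the 3 was called (adjusted p 0.391 for Hopx, 0.579 for Fabp7 and 0.277 for Fgfr3), while their changes stayed at 1.65, 1.42 and 1.90. Without Control 8w replicate 1, which leaves that group 1 sample assumed to vary like the others, the changes of Hopx, Fabp7 and Fgfr3 were 1.89, 1.41 and 1.40 and all 3 were called.

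**Figure D2:**
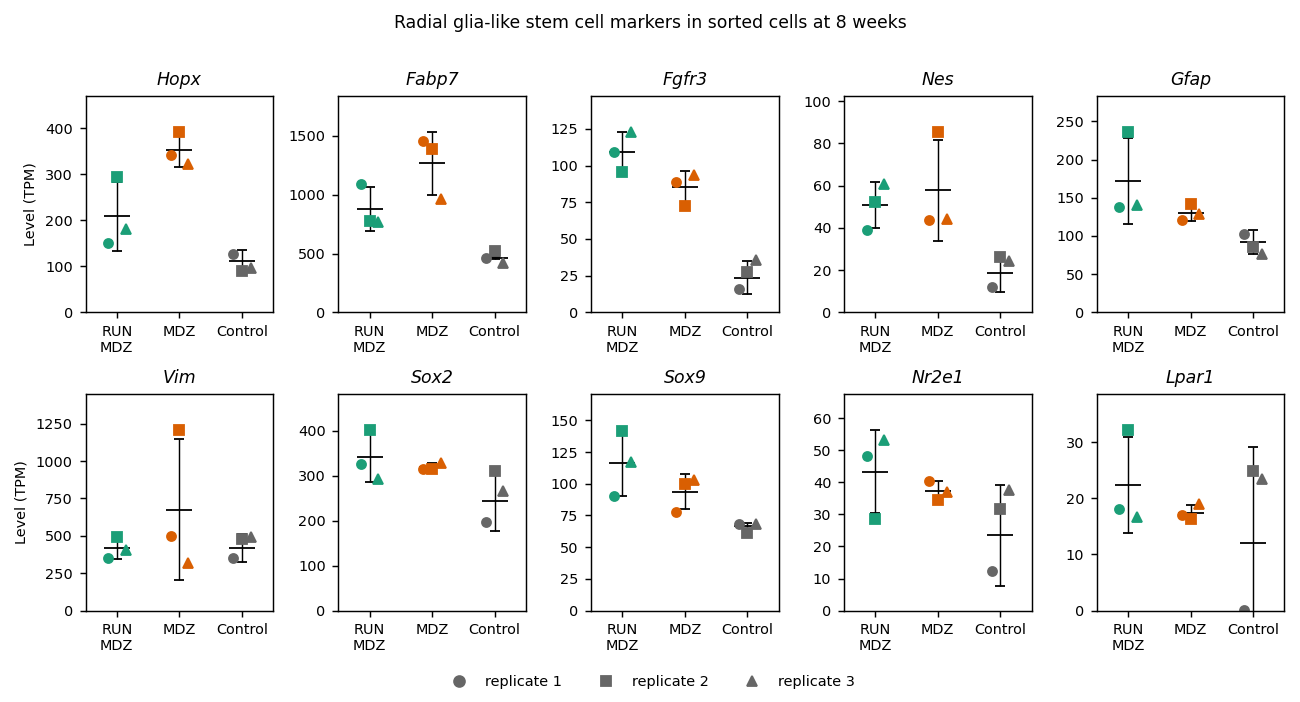
Level of each marker in TPM (y axes, from 0) in the 3 RUN MDZ 8w, 3 MDZ 8w and 3 Control 8w libraries; symbols are libraries, the line is the mean and the bar the SD, the mean of Control 8w replicates 2 and 3 being 1 sample, and bars end at 0. Hopx is highest in MDZ 8w, Fgfr3 is highest in RUN MDZ 8w, and both genes and Fabp7 are lowest in Control 8w.

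Nes measured 39.2, 52.5 and 60.7 TPM in RUN MDZ 8w, 43.8, 85.6 and 44.4 TPM in MDZ 8w, and 12.2, 26.1 and 24.4 TPM in Control 8w. Both exposed groups lay above Control 8w, but the gene was not called. Its change was 1.59 ± 0.44 in MDZ 8w against Control 8w (interval 0.57 to 2.61, adjusted p = 0.0849), 1.45 ± 0.44 in RUN MDZ 8w against Control 8w (adjusted p = 0.0747) and -0.14 ± 0.39 in RUN MDZ 8w against MDZ 8w (interval -1.05 to 0.77, adjusted p = 0.992). With Control 8w replicates 2 and 3 kept as separate samples, Nes was called in MDZ 8w against Control 8w (change 1.42, adjusted p = 0.0475) and in RUN MDZ 8w against Control 8w (change 1.29, adjusted p = 0.0493).

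Gfap measured 138, 236 and 141 TPM in RUN MDZ 8w, 121, 142 and 129 TPM in MDZ 8w, and 103, 85.6 and 76.7 TPM in Control 8w. All libraries of both exposed groups were above those of Control 8w. The change was 0.51 ± 0.27 in MDZ 8w against Control 8w (adjusted p = 0.311), 0.85 ± 0.27 in RUN MDZ 8w against Control 8w (adjusted p = 0.0881) and 0.35 ± 0.24 in RUN MDZ 8w against MDZ 8w (adjusted p = 0.775).

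Vim measured 353, 492 and 405 TPM in RUN MDZ 8w, 497, 1208 and 320.0 TPM in MDZ 8w, and 354, 481 and 491 TPM in Control 8w. The MDZ 8w values spanned the range of both other groups, with replicate 2 far above the rest, and that replicate was also the highest library for Nes. Without that library the change of Vim in MDZ 8w against Control 8w was -0.06, against 0.48 ± 0.49 with it (adjusted p = 0.594). The change of Vim nearest to 0 was that of RUN MDZ 8w against Control 8w, at -0.01 ± 0.49 (interval -1.14 to 1.13).

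None of the transcription factors was called at 8 weeks. Sox2 measured 326, 401 and 293 TPM in RUN MDZ 8w, 315, 315 and 328 TPM in MDZ 8w, and 197, 311 and 266 TPM in Control 8w. MDZ 8w lay just above the highest Control 8w library, and the change was 0.42 ± 0.21 (interval -0.07 to 0.91, adjusted p = 0.285). Sox9 measured 90.0, 142 and 117 TPM in RUN MDZ 8w, 78.0, 100.2 and 103 TPM in MDZ 8w, and 68.6, 61.1 and 68.6 TPM in Control 8w. Both exposed groups were above Control 8w without overlap, with changes of 0.47 ± 0.25 in MDZ 8w (adjusted p = 0.304) and 0.77 ± 0.25 in RUN MDZ 8w (adjusted p = 0.0926).

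Nr2e1 and Lpar1 overlapped in all 3 groups, and Control 8w replicate 1 was their lowest library. Nr2e1 measured 48.2, 28.6 and 53.3 TPM in RUN MDZ 8w, 40.4, 34.4 and 37.0 TPM in MDZ 8w, and 12.3, 31.7 and 37.6 TPM in Control 8w. Without Control 8w replicate 1 its change in MDZ 8w against Control 8w was 0.10, against 0.81 ± 0.48 with it (adjusted p = 0.348). Lpar1 measured 18.1, 32.2 and 16.7 TPM in RUN MDZ 8w, 17.0, 16.3 and 18.9 TPM in MDZ 8w, and 0.0406, 24.9 and 23.4 TPM in Control 8w. Its change in MDZ 8w against Control 8w was 1.84 ± 1.15 with all libraries (interval -0.82 to 4.51, adjusted p = 0.377) and -0.46 without Control 8w replicate 1.

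**Figure D3:**
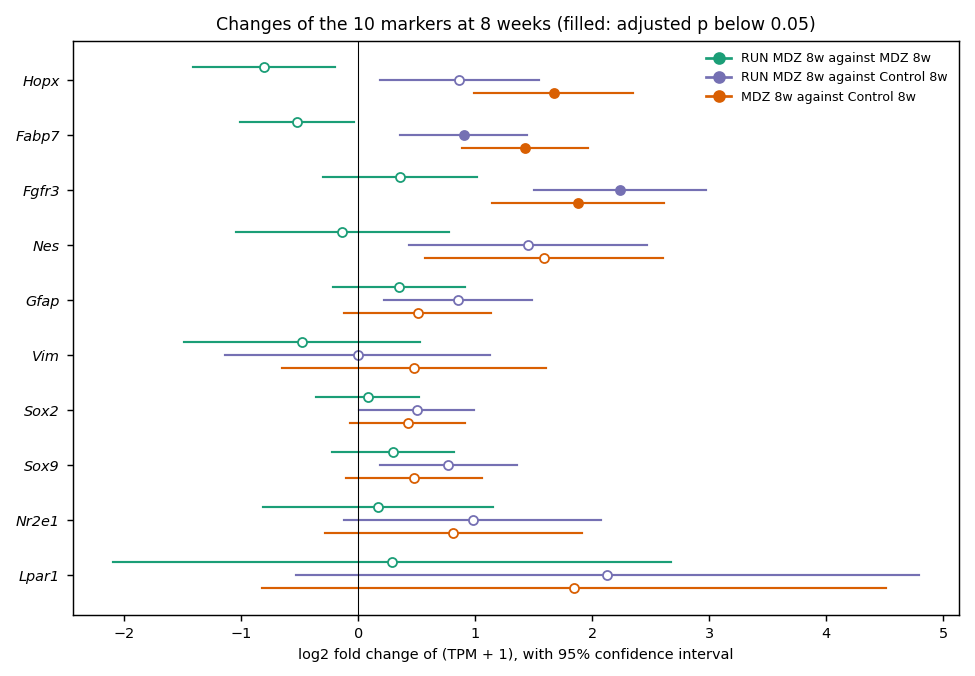
Change of each marker (x axis, log2 fold change of TPM + 1; points are estimates, bars 95% intervals) in the 3 comparisons at 8 weeks, with filled points for called genes. Filled points are Hopx, Fabp7 and Fgfr3 in MDZ 8w against Control 8w and Fabp7 and Fgfr3 in RUN MDZ 8w against Control 8w; the interval of Lpar1 is the widest.

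In RUN MDZ 8w against MDZ 8w, the comparison of running in exposed mice, limma called 0 of 10 markers, while 0.0524% of all genes tested were called higher and 0.105% lower (0.157% in either direction). At an unadjusted p under 0.05 there were 2 of 10 (Hopx and Fabp7), against 9.98% of all genes. Hopx and Fgfr3 had groups that did not overlap, 2 of 10 against 24.9% of all genes, Hopx lower and Fgfr3 higher in RUN MDZ 8w. The median change of the markers was 0.12 and that of all genes 0.05. Under library quality weights Hopx was called (change -0.91, adjusted p = 0.0395).

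In RUN MDZ 8w against Control 8w, Fabp7 and Fgfr3 were called higher, 2 of 10 markers, while 9.41% of all genes tested were called higher and 1.9% lower (11.3% in either direction). This comparison shares its samples with the other 2 at 8 weeks, so it is not independent of them. At an unadjusted p under 0.05 there were 7 of 10 markers, against 27.2% of all genes. With Control 8w replicates 2 and 3 averaged, the groups did not overlap for 7 of 10 markers (Hopx, Fabp7, Fgfr3, Nes, Gfap, Sox2 and Sox9) in either exposed group against Control 8w, where the share over all genes was 35% for RUN MDZ 8w and 39.1% for MDZ 8w. Over 19 alternative settings and omissions of single libraries, Fabp7 was called in 5 (adjusted p 0.015 to 0.661) and Fgfr3 in 17 (adjusted p 0.00163 to 0.18). Fabp7 lost its call without Control 8w replicate 1 or 3, MDZ 8w replicate 1 or 2, or any 1 of the RUN MDZ 8w replicates (adjusted p 0.0612 to 0.112). Leaving out Control 8w replicate 1 brought Hopx and Gfap under the threshold as well (changes 1.08 and 1.02, adjusted p = 0.0477 and 0.0448). The 2 exceptions for Fgfr3 were library quality weights and a fit of only the 2 groups compared.

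The ratio of Gfap to Hopx within a library was computed after the values were seen and is given without a test. It was 0.914, 0.804 and 0.776 in RUN MDZ 8w, 0.354, 0.362 and 0.400 in MDZ 8w, and 0.805, 0.945 and 0.790 in Control 8w. MDZ 8w stood alone with the lower ratio, and RUN MDZ 8w and Control 8w overlapped. At P10, where files were normalized apart, the ratio ran from 1.07 to 1.45 in MDZ P10 and from 1.24 to 1.34 in Control P10.

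Markers of other cell types moved with the 8-week groups. The 15 mature astrocyte markers summed to 4762 to 5511 TPM in RUN MDZ 8w, 3167 to 3591 TPM in MDZ 8w, against 2034 to 3423 TPM in Control 8w. Of these, 1 of 15 was called higher in MDZ 8w against Control 8w (Mlc1) and 9 of 15 in RUN MDZ 8w against Control 8w, and none was at 0 in every library of a group. Of all genes tested, 4.68% were called higher and 0.452% lower in MDZ 8w against Control 8w. The shares were 9.41% and 1.9% in RUN MDZ 8w against Control 8w. Changes were positive for 14 of 15 astrocyte markers in both comparisons. Their median was 0.67 in MDZ 8w against Control 8w, beside 0.36 for all genes. In RUN MDZ 8w against Control 8w it was 1.58, beside 0.51. The 13 neuroblast and immature neuron markers summed to 4906 to 6048 TPM in RUN MDZ 8w, 5338 to 7683 TPM in MDZ 8w, against 9276 to 9660 TPM in Control 8w, with 8 of 13 called lower in RUN MDZ 8w and 3 of 13 (Neurod1, Prox1 and Nhlh1) in MDZ 8w. Their part in the changes of Hopx, Fabp7 and Fgfr3 was not tested.

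Summed markers of vascular, ependymal and myelinating cells were higher in every RUN MDZ 8w library than in every MDZ 8w library, with 4 of 13 endothelial, 1 of 15 pericyte, smooth muscle and fibroblast, 0 of 10 mature oligodendrocyte and 0 of 10 ependymal and choroid plexus markers called. Of all genes tested, 0.0524% were called higher in RUN MDZ 8w against MDZ 8w. Sums were 2812 to 4165 TPM in RUN MDZ 8w, 232 to 1128 TPM in MDZ 8w, against 325 to 485 TPM in Control 8w for 10 mature oligodendrocyte markers, of which Ermn and Mobp were at 0 in all Control 8w libraries. For 13 endothelial markers they were 1424 to 1876 TPM in RUN MDZ 8w, 517 to 701 TPM in MDZ 8w, against 668 to 977 TPM in Control 8w, with none at 0 throughout a group. Sums of 10 ependymal and choroid plexus markers ran from 458 to 4374 TPM in RUN MDZ 8w, from 67.9 to 123 TPM in MDZ 8w and, in Control 8w, from 113 to 4816 TPM, where Foxj1, Tmem212, Ccdc153, Dynlrb2 and Pifo were at 0 in all 3 libraries. The Control 8w sum was 113 TPM in replicate 1 and 4540.4 and 4816 TPM in replicates 2 and 3, and most of the sums of replicates 2 and 3 was the choroid plexus gene Ttr, whose Control 8w mean was 2306 ± 3261 TPM (n = 2). Pericyte, smooth muscle and fibroblast markers, 15 in number and with none at 0 throughout a group, summed to 2446 to 3582 TPM in RUN MDZ 8w, 891 to 1474 TPM in MDZ 8w, against 2439 to 3906 TPM in Control 8w. Against Control 8w, 9 of 10 mature oligodendrocyte, 8 of 13 endothelial, 2 of 15 pericyte, smooth muscle and fibroblast and 5 of 10 ependymal markers were called higher in RUN MDZ 8w. The share over all genes tested was 9.41%. In MDZ 8w against Control 8w, Foxj1, Tmem212, Ccdc153 and Dynlrb2 (4 of 10 ependymal and choroid plexus markers) and the endothelial Tie1 (1 of 13) were called higher, and the endothelial Cdh5 (1 of 13) and the pericyte marker Vtn (1 of 15) lower. The shares over all genes tested were 4.68% higher and 0.452% lower. Control 8w libraries had the fewest genes above 0 at 8 weeks. For genes at 0 there, poorer detection and a group difference cannot be told apart. None of 10 oligodendrocyte precursor and 11 microglia markers was called at 8 weeks, and the microglia marker Trem2 was at 0 in all Control 8w libraries. Microglia changes were positive for 11 of 11 in MDZ 8w against Control 8w (median 1.57, beside 0.36 for all genes). In RUN MDZ 8w against MDZ 8w they were positive for 0 of 11 (median -1.15, beside 0.05). Microglia sums ran from 92.0 to 228 TPM in RUN MDZ 8w and from 148 to 360 TPM in MDZ 8w. In Control 8w the microglia sum was 49.0 TPM in replicate 1 and 328 and 309 TPM in replicates 2 and 3. Precursor changes were positive for 6 of 10 (median 0.08) in MDZ 8w against Control 8w. They were positive for 10 of 10 (median 0.90) in RUN MDZ 8w against MDZ 8w. Precursor sums ran from 2995 to 8097 TPM in RUN MDZ 8w, 1552 to 6002 TPM in MDZ 8w and 1266 to 4570 TPM in Control 8w, with replicate 1 highest in each. Their part in the higher Hopx, Fabp7 and Fgfr3 values of MDZ 8w, and in the lower Hopx and higher Fgfr3 values of RUN MDZ 8w, was not tested either.

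Among 26 other radial glia and progenitor genes, 1 was called in MDZ 8w against Control 8w, Slc1a3, the glial glutamate transporter GLAST. It measured 1175 ± 101 TPM in MDZ 8w, against 752 ± 50.6 TPM in Control 8w, a change of 0.64 (adjusted p = 0.0406). The median change of the 26 was 0.61 in that comparison, 23 of them being positive, and that of all genes was 0.36. Of all genes tested, 4.68% were called higher there. In RUN MDZ 8w against Control 8w, Slc1a3 was called again (adjusted p = 0.0264) and so was Ednrb, the endothelin receptor type B, at 238 ± 70.9 TPM in RUN MDZ 8w and 51.4 ± 4.06 TPM in Control 8w. Emx1, a homeobox gene of the dorsal telencephalon, was called lower, at 109 ± 13.9 TPM in RUN MDZ 8w and 251 ± 53.5 TPM in Control 8w. In RUN MDZ 8w against Control 8w the median of the 26 was 0.36, beside 0.51 for all genes. There 9.41% of all genes tested were called higher and 1.9% lower. None of the 26 was called in RUN MDZ 8w against MDZ 8w (median -0.23) or at P10 (median 0.08).

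Of the family relatives of the markers, Fabp3, another fatty acid binding protein, measured 26.0 ± 1.10 TPM in MDZ 8w, against 1.85 ± 2.61 TPM in Control 8w (adjusted p = 0.0285). Lpar4, another lysophosphatidic acid receptor, measured 5.15 ± 1.63 TPM in MDZ 8w and was listed at 0 in all 3 Control 8w libraries (adjusted p = 0.0433). These were 2 of 24 relatives tested, and both were also called in RUN MDZ 8w against Control 8w, at 18.5 ± 7.10 TPM for Fabp3 and 9.12 ± 2.66 TPM for Lpar4 in RUN MDZ 8w (adjusted p = 0.0327 and 0.0118). Of all genes tested, 4.68% and 9.41% were called higher in these comparisons. Control 8w libraries had 11163 to 11397 genes above 0, against 15382 to 16709 in MDZ 8w. For such low genes, poorer detection in Control 8w and a group difference cannot be told apart. Of 10 other intermediate filament and filament-linked genes tested at 8 weeks, Synm, which encodes synemin, a filament partner of vimentin, was the single call, at 22.7 ± 6.20 TPM in RUN MDZ 8w and 2.88 ± 4.05 TPM in Control 8w (adjusted p = 0.0483). At P10, 0 of 22 relatives and 0 of 8 filament and filament-linked genes were called.

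In culture the comparison asked how added Egr1 altered neural stem cells. Egr1 itself measured 1769, 1390.3 and 1291 TPM in Egr1 culture and 361, 285 and 344 TPM in Control culture, so it was higher in every Egr1 culture library. Hopx, Fgfr3, Nes and Gfap were called higher in Egr1 culture than in Control culture and Fabp7 and Sox2 lower, 6 of the 9 markers tested, while 15.2% of the 12402 genes tested were called higher and 29% lower (44.2% in either direction). Lpar1, whose mean was under 1 TPM, was not tested. The median change of the 9 was 0.02 and that of all genes -0.10. The direction of all calls depended on the scaling, with 34.4% of the called genes higher as deposited, 50.5% after median-of-ratios scaling and 43.3% after quantile normalization. The 6 called markers kept direction and call under both.

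The regions before the starts of the 3 markers with the largest positive changes are printed for the consensus letters GCGNGGGCG of the Egr zinc fingers. They are 250 bases upstream of the annotated start from RefSeq (GRCm38.p6), 5′ to 3′ on the gene's strand, with a match on either strand in capitals. Fgfr3 is chr5:33721474-33721723 on the plus strand, Nes chr3:87970843-87971092 on the plus strand and Gfap chr11:102897201-102897450 on the minus strand.
Fgfr3: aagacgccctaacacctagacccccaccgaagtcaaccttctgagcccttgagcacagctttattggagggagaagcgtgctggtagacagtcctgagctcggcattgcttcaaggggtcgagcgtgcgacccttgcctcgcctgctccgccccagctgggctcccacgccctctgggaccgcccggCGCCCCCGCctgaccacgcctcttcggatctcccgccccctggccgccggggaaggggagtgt
Nes: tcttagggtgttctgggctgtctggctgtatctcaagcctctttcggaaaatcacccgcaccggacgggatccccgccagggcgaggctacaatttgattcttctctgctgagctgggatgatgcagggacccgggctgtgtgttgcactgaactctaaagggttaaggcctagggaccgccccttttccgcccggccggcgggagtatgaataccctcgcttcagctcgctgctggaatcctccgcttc
Gfap: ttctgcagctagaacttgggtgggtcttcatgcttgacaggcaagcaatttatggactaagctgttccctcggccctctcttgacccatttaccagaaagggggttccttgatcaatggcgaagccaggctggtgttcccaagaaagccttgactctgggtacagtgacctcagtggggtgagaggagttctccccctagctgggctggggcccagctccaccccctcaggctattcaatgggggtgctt
Fgfr3 held 1 match, on the opposite strand, beginning at position -63 from the start, and no match was found in the Nes and Gfap windows. Across the 13 windows of the 9 markers with an entry (Sox9 had none here), this was the single match, and 4.7% of all 32851 windows of that length held one. A match in letters is a description and shows neither binding nor regulation.

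Gfap measured 6.28, 5.89 and 5.03 TPM in Egr1 culture and 1.14, 1.43 and 0.925 TPM in Control culture. The groups did not overlap. The mean was 5.73 ± 0.636 TPM in Egr1 culture and 1.16 ± 0.251 TPM in Control culture, 4.92 times as high, and the change was 1.64 ± 0.14 (interval 1.32 to 1.96, adjusted p = 3.77e-05). At these low levels the size of the Gfap change depended on the setting. It ran from 0.80 to 2.22 over 13 alternatives, with a call in all 13. With a minimum mean of 5, Gfap was not tested. Nes measured 419.6, 394 and 320.2 TPM in Egr1 culture and 193, 176 and 199 TPM in Control culture, again without overlap. Its change was 0.99 ± 0.10 (interval 0.76 to 1.21, adjusted p = 9.09e-05). Vim, the other filament gene, measured 2575, 2542 and 2301 TPM in Egr1 culture and 2494, 2386 and 2436 TPM in Control culture. Its groups overlapped, with a change of 0.02 ± 0.06 and an interval of -0.12 to 0.16 (adjusted p = 0.837). The ratio of Nes to Vim within a library, computed after the values were seen, was 0.139 to 0.163 in Egr1 culture and 0.0739 to 0.0815 in Control culture.

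Fgfr3 measured 52.5, 53.2 and 42.9 TPM in Egr1 culture and 18.0, 18.2 and 17.0 TPM in Control culture. Every Egr1 culture library was above every Control culture library, and the change of 1.43 ± 0.09 (interval 1.21 to 1.64) had the lowest adjusted p of the markers, 8.44e-06. Lpar1, the other receptor, measured 0.0817, 0.236 and 0.151 TPM in Egr1 culture and 0.338, 0.481 and 0.405 TPM in Control culture. At this level, under 1 TPM in all 6 libraries, Egr1 culture was lower without overlap, and Lpar1 was called only when no filter on low values was used.

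Hopx measured 40.8, 46.1 and 38.9 TPM in Egr1 culture and 35.6, 31.3 and 33.5 TPM in Control culture. The groups did not overlap and the change was small, 0.32 ± 0.09 (interval 0.12 to 0.51, adjusted p = 0.0162). The call was lost without Control culture replicate 2 (adjusted p = 0.0577) or Egr1 culture replicate 2 (adjusted p = 0.0646). Fabp7 measured 1591, 1869 and 2155 TPM in Egr1 culture and 2440.4, 2999 and 2744 TPM in Control culture. It was lower in every Egr1 culture library, with a change of -0.55 ± 0.11 (interval -0.81 to -0.29, adjusted p = 0.0048).

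Sox2 measured 130.4, 134 and 116 TPM in Egr1 culture and 148, 152 and 159 TPM in Control culture. Its lower level in Egr1 culture, a change of -0.27 ± 0.07 (interval -0.43 to -0.11), was called (adjusted p = 0.0127). Sox9 measured 30.2, 25.8 and 24.2 TPM in Egr1 culture and 30.0, 29.6 and 34.1 TPM in Control culture. Its groups overlapped, and its change was -0.22 ± 0.10 (adjusted p = 0.103, and 0.0383 without Egr1 culture replicate 1). Nr2e1 measured 5.42, 5.29 and 4.79 TPM in Egr1 culture and 6.70, 5.76 and 6.68 TPM in Control culture. All Egr1 culture values were lower, but the change of -0.26 ± 0.11 (interval -0.51 to -0.01) was not called (adjusted p = 0.0875). Groups did not overlap for 7 of the 9 markers tested, against 55.5% of all genes, and 7 of 9 had an unadjusted p under 0.05, against 51.9% of all genes.

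**Figure D4:**
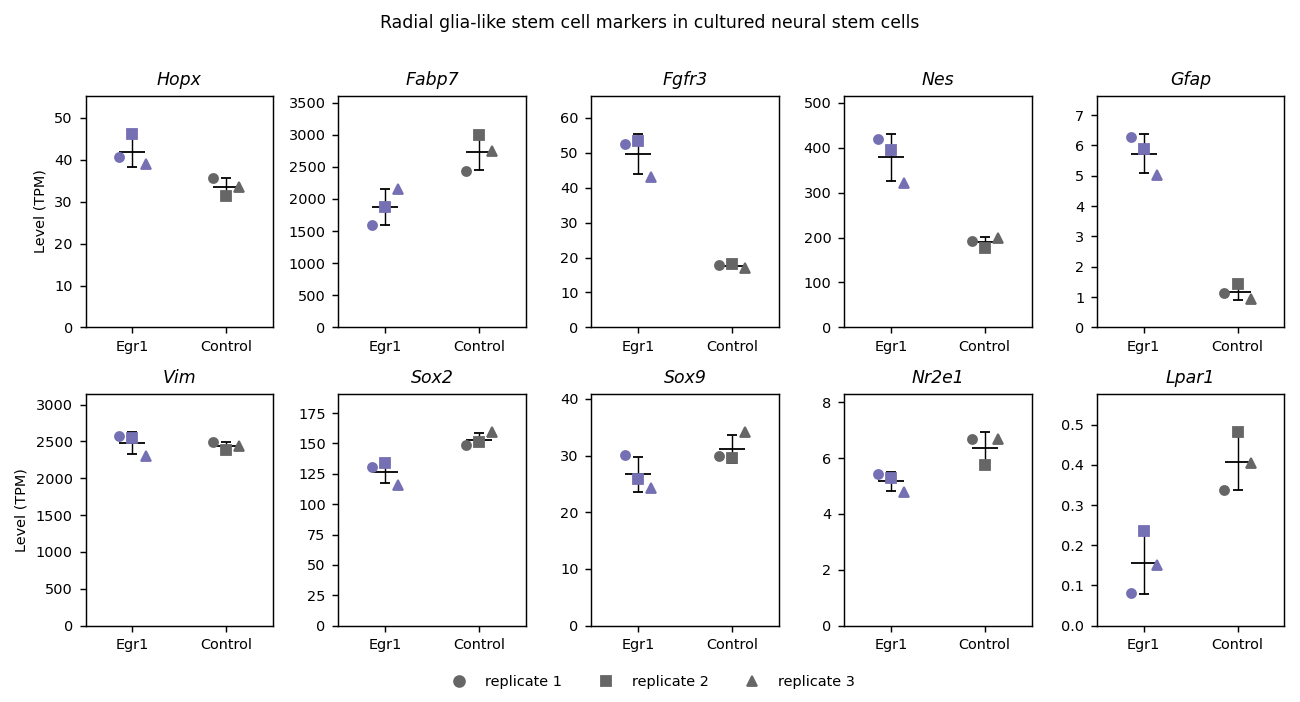
Level of each marker in TPM (y axes, from 0) in the 3 Egr1 culture and 3 Control culture libraries; symbols are libraries, the line is the mean and the bar the SD. Fgfr3, Nes and Gfap lie well apart with Egr1 culture higher, Fabp7 and Sox2 lie lower in Egr1 culture, and Vim overlaps.

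Of the 26 other radial glia and progenitor genes, 23 were tested in culture, 5 being called higher and 9 lower in Egr1 culture, with a median change of -0.09. Over all genes tested, 15.2% were called higher and 29% lower, and the median change was -0.10. Ednrb measured 86.7 ± 6.71 TPM in Egr1 culture and 198 ± 13.8 TPM in Control culture (change -1.19, adjusted p = 7.42e-06). Thrsp, a lipogenesis-related gene transcribed in adult hippocampal stem cells, measured 19.0 ± 1.70 TPM in Egr1 culture and 42.6 ± 1.31 TPM in Control culture (change -1.13, adjusted p = 1.48e-05). Lrig1, a receptor tyrosine kinase antagonist, Slc1a3, and Ptprz1, a receptor phosphatase of radial glia, were called lower as well, with changes of -0.85, -0.76 and -0.88. The 5 genes called higher, named after their values were seen, were Tnc, Sox1, Msi2, Hes5 and Notch2, with changes of 0.63 to 0.96.

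Relatives in culture gave 4 genes called higher and 6 lower of 19 tested, where 15.2% of all genes were called higher and 29% lower. Enpp2, which makes lysophosphatidic acid, the ligand of Lpar1, measured 13.2 ± 2.13 TPM in Egr1 culture and 3.87 ± 0.616 TPM in Control culture (change 1.54, adjusted p = 5.96e-05), and Sox8 was called higher with a change of 0.68. Fgfrl1, Lpar6 and Fabp5 were called lower, with changes of -0.69, -0.49 and -0.59. Of 7 intermediate filament and filament-linked genes tested, Bfsp2, a filament protein best known from the lens, was at 26.5 ± 3.75 TPM in Egr1 culture and 8.00 ± 1.03 TPM in Control culture (change 1.61, adjusted p = 2.08e-05). Ina was called higher (0.66), and Lmnb2 and Plec lower (-0.28 and -0.49).

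Counts of other cell type lists in culture stand beside 15.2% of all genes tested called higher and 29% called lower (44.2% in either direction). The 15 mature astrocyte markers, with Gjb6 at 0 in all 6 libraries, summed to 533 to 604 TPM in Egr1 culture and 779 to 832 TPM in Control culture, 3 of 13 tested being called higher and 5 lower. The 10 mature oligodendrocyte markers summed to 199 to 207 TPM in Egr1 culture and 96.3 to 106 TPM in Control culture, with 4 of 4 tested called higher, and most of the sum was Cnp, at 193 ± 2.39 TPM in Egr1 culture and 97.6 ± 5.55 TPM in Control culture. Pericyte, smooth muscle and fibroblast markers summed to 149 to 186 TPM in Egr1 culture and 7.65 to 10.2 TPM in Control culture, and most of the Egr1 culture sum was 1 gene, Dcn, at 145 ± 19.1 TPM in Egr1 culture and 0.129 ± 0.0457 TPM in Control culture. Of 5 tested, Dcn, Acta2 and Anpep were called higher and Cspg4 lower, and Vtn and Col1a2 were at 0 in all 6 libraries. The 10 oligodendrocyte precursor markers summed to 880.3 to 1021 TPM in Egr1 culture and 1660.0 to 1758 TPM in Control culture, with 3 of 7 tested called higher and 3 lower, among them Olig1 (change -1.14) and Olig2 (-0.51). The 13 neuroblast and immature neuron markers summed to 365 to 414 TPM in Egr1 culture and 269 to 291 TPM in Control culture, with 2 of 7 tested called higher and 1 lower. Calb2 carried that difference, at 144 ± 16.8 TPM in Egr1 culture and 1.13 ± 0.230 TPM in Control culture. Mog and Ugt8a were at 0 in all Egr1 culture libraries and Mobp in all Control culture libraries. Their part in the changes of Gfap, Fgfr3 and Nes was not tested.

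The order of the 10 levels differed between the settings. Fabp7 led in all 5 sorted groups, with a mean of 787 FPKM in MDZ P10, 1048 FPKM in Control P10, 877 TPM in RUN MDZ 8w, 1267 TPM in MDZ 8w, and, lowest at 8 weeks, 463 TPM in Control 8w. In MDZ 8w and in Control 8w its range overlapped that of Vim, the next gene. At P10 the next genes after Fabp7 were Fgfr3, Gfap, Sox2, Vim and Hopx in that order of means in both groups, and from Gfap to Hopx neighbours overlapped. The range of Fgfr3 also overlapped that of Gfap in Control P10, but not in MDZ P10. Nes and Lpar1 closed the order at P10, at 9.63 FPKM and 7.32 FPKM in MDZ P10 and at 10.2 FPKM and 8.55 FPKM in Control P10.

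At 8 weeks Vim and Sox2 followed Fabp7 in RUN MDZ 8w and in Control 8w, whereas in MDZ 8w Hopx came directly after Vim, at 352 TPM, with a range overlapping that of Sox2. Fgfr3, second by its mean at P10, was seventh in all 3 groups at 8 weeks. Its range overlapped that of Sox9, the next higher gene, in RUN MDZ 8w and in MDZ 8w but not in Control 8w. It also overlapped the next lower gene in MDZ 8w (Nes) and in Control 8w (Nr2e1). In Egr1 culture Vim came first at 2473 TPM and Fabp7 second at 1872 TPM without overlap, whereas in Control culture Fabp7, at 2728 TPM, overlapped Vim, at 2439 TPM. Nes came after these in both culture groups. Lpar1 had the lowest mean in every group of the study, and its range overlapped the next higher gene in Control P10, RUN MDZ 8w and Control 8w.

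**Figure D5:**
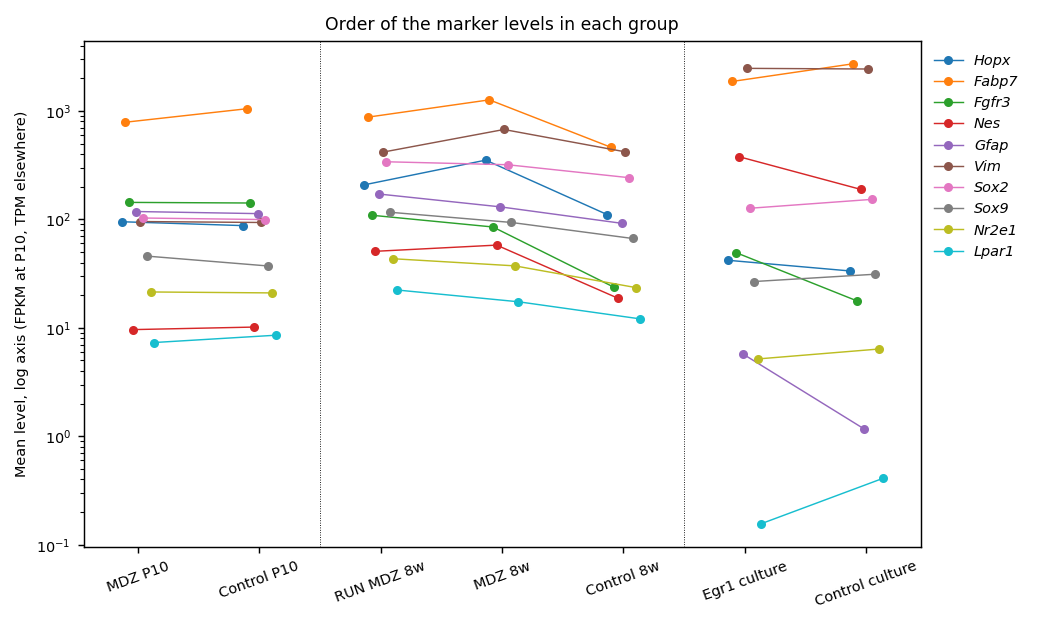
Mean level of each marker (y axis, log scale, FPKM at P10 and TPM elsewhere) in the 7 groups, with dotted lines between sets that were normalized separately and lines joining the same gene within a set. Fabp7 leads in the sorted groups, Vim and Fabp7 lead in culture, and Gfap is at position 3 of 10 in both P10 groups, position 5 in the 3 groups at 8 weeks, position 8 in Egr1 culture and position 9 in Control culture.

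The genes whose profiles lay nearest to those of the called markers were found by the root mean square distance of log2 values, centred within P10, within 8 weeks and within culture, over 20 samples and 11340 genes. For Hopx they were Uqcr10 (distance 0.155), Atp5g3 (0.190) and Fam210b (0.229), beside a root mean square of 0.468 for Hopx itself. For Fabp7 (0.433) they were Tmem14c, Asb1 and Scpep1 at 0.237 to 0.251, and for Fgfr3 (0.718) Hdac11, Rgma and Slc16a1 at 0.182 to 0.277. Nes (0.566) had Hmgcs1, 1190002N15Rik and Fbxo33 at 0.229 to 0.288, and Gfap (0.540) had Jund, Ntsr2 and Ildr2 at 0.241 to 0.250. Sox2 varied least among these 6 (0.198) and had Fads1, Pdik1l and Vezt at 0.0802 to 0.104. No other marker was among the nearest 3 genes of any of these 6 markers.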

How the data were processed

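RNA was measured by sequencing in 21 libraries of 7 groups. Per the labels' protocols, mRNA was isolated with a direct bead kit and libraries were made with a directional kit. The authors deposited FPKM for the P10 libraries, and TPM is what they deposited for 8 weeks and culture. Both units were inferred, since TPM columns total 1000000 and FPKM columns do not. The build mm10 and the tools TopHat, Bowtie2 and DESeq2 are named, without role or version, per the submitters' processing notes. Annotation, strand setting and quantification program are not given in the sources used, so overlapping or near-identical genes are uncertain.

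From these values, log2(value + 1) was fitted with limma-trend (limma 3.58.1, R 4.3.3) for genes averaging 1 or more over the fit, with Benjamini-Hochberg adjustment over all genes tested, a threshold of 0.05 and 95% intervals. The P10 and culture fits used 6 libraries each. The 8-week fit used 3 groups with 1 spread and the mean of Control 8w replicates 2 and 3 as 1 sample. The fits were tested on simulated data. Summaries and figures used Python 3.11.15 with numpy 2.4.6, pandas 2.3.3 and matplotlib 3.10.9. Gene positions and upstream sequences came from RefSeq. Upstream windows were searched for GCGNGGGCG on both strands.

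The 10 markers, the further gene lists and the tests were chosen with earlier results of these data known. All 10 markers are named in every comparison, and of further lists up to 5 called genes by adjusted p. For called markers the 3 nearest genes are named. Alternatives were the pseudocount, the filter, the scaling, library weights, leaving out libraries, the replicate block, the treatment of Control 8w replicates 2 and 3, and the groups in the fit. Deviations of same-numbered libraries from their group means correlated at -0.0771 to 0.120 at P10 and -0.0155 to 0.133 at 8 weeks. In culture they correlated at -0.0523 to 0.0215. For differently numbered libraries the ranges were -0.216 to 0.165 at P10, -0.109 to 0.0390 at 8 weeks and -0.0469 to 0.0800 in culture. At 8 weeks the highest value came from a same-numbered pair. The main fits did not pair libraries, and whether same-numbered libraries shared a batch was not tested.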

Additional observations from a re-analysis of the deposited data

Results flagged for a closer look

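Fabp7 had changes of opposite sign at the 2 ages, of which the one at P10 was not called. In midazolam-exposed mice against controls its log2 change was -0.40 ± 0.12 at P10 (adjusted p = 0.293, and -0.20 after quantile normalization), where every MDZ P10 library was below every Control P10 library, and 1.43 ± 0.23 at 8 weeks (adjusted p = 0.0143), where every MDZ 8w library was above every Control 8w library. The difference between the ages was not tested, because the files of the 2 ages hold different units that were normalized separately.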

How the results depend on the processing

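Over 845 alternative values of single markers, 777 kept their direction and side of the threshold, 29 lost a call, 13 gained one and 26 changed sign. For MDZ 8w against Control 8w, the 3 called markers became 0 with library quality weights and 0 to 3 when libraries were left out. Library quality weights gave 1 call, Hopx, in RUN MDZ 8w against MDZ 8w. For RUN MDZ 8w against Control 8w, the 2 called markers became 1 with a pseudocount of 5, with no filter, with a minimum mean of 5 and with quantile or median-of-ratios scaling. They became 0 with quality weights or with only the 2 groups in the fit, 6 with Control 8w replicates 2 and 3 kept apart, and 1 to 3 when libraries were left out. The causes were not tested. Changes near 0 turned sign: at P10, Fgfr3 (-0.0144 after quantile normalization and -0.0015 with FPKM rescaled to a common total), Vim (-0.0017) and Nr2e1 (-0.0281) with quality weights, and after quantile normalization Vim in RUN MDZ 8w against Control 8w (0.17) and in culture (-0.0079). Without single libraries, the P10 changes ran from -0.0017 to 0.24 for Hopx, -0.0389 to 0.11 for Fgfr3, -0.0876 to 0.23 for Gfap, -0.10 to 0.20 for Vim, -0.0384 to 0.10 for Sox2 and -0.0596 to 0.10 for Nr2e1. In MDZ 8w against Control 8w they ran from -0.0559 to 0.90 for Vim and -0.46 to 1.88 for Lpar1. Changes in RUN MDZ 8w against MDZ 8w ran from -0.30 to 0.18 for Nes, -0.91 to 0.0498 for Vim, -0.0466 to 0.18 for Sox2 and -0.0011 to 0.44 for Nr2e1. Those in RUN MDZ 8w against Control 8w ran from -0.23 to 0.11 for Vim and -0.17 to 2.30 for Lpar1, and in culture from -0.0118 to 0.0692 for Vim.

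The number of genes called in MDZ 8w against Control 8w was 783, against 1410 with a pseudocount of 0.1, 461 with 5, 152 after quantile normalization, 19 with quality weights, 1787 with Control 8w replicates 2 and 3 kept apart and 207 to 2928 without single libraries. For RUN MDZ 8w against MDZ 8w it was 24, against 432 with quality weights, 122 kept apart, 360 with only the 2 groups and 0 to 275 without single libraries. For RUN MDZ 8w against Control 8w it was 1727, against 406 after quantile normalization, 0 with quality weights or only the 2 groups, 2904 kept apart and 910 to 3952 without single libraries. At P10 it was 1, against 0 to 101. With the replicate block, where Control 8w replicates 2 and 3 had to be kept apart, 4 markers and 1227 genes were called in MDZ 8w against Control 8w, 0 and 14 in RUN MDZ 8w against MDZ 8w, and 5 and 2595 in RUN MDZ 8w against Control 8w. The block called 0 markers at P10 and 6 in culture.

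Depth is unknown at 8 weeks, counting error is not given there, and Control 8w rests on n = 2. One spread was assumed for 8-week groups that did not vary alike.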
